A study of Mus musculus with 54 samples.

Results

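Polycomb repressive complex 1 (PRC1) reads and compacts chromatin that carries the histone mark of Polycomb repressive complex 2 (PRC2), and the genes described here encode the subunits that set its canonical form apart. They are the chromobox genes Cbx2, Cbx6, Cbx7 and Cbx8, the polyhomeotic genes Phc1, Phc2 and Phc3, and Scmh1. They were taken as named genes, by their Ensembl identifiers as mapped to symbols in GENCODE M21, and all 8 were found among the 55401 genes of the deposited count table. All 8 also passed the filter on low counts in each fit.

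Poly(A) RNA of mouse embryonic stem cells was sequenced in the undifferentiated state, kept in 2i/LIF (labelled mESC here), and after a brief differentiation by removal of 2i/LIF and addition of all-trans retinoic acid (ATRA), for which the labels used here give neither a dose nor a duration. The study asked how variants of EZH2, the catalytic subunit of PRC2, that are found in Weaver syndrome, a congenital overgrowth disorder, affect gene expression. The parental line, labelled flfl in the sample descriptions, carries both Ezh2 alleles. The line labelled parental_EZH2-heterozygote (het below) has lost an allele and is the background of every line with an added protein, so that the WT line is het plus wild-type EZH2, and the A677T, R679C, K634E, K563E and A733T lines are het plus the EZH2 of that name. The remaining Ezh2 allele is therefore present in the control and in the variant lines alike. A677T, R679C, K634E and K563E are called the Weaver lines, and A733T was kept apart as the growth restriction-associated variant from general knowledge of the study, since the labels do not say which variant that is. Each of the 8 lines had 3 libraries per state, which makes 48 libraries in 16 groups. Nothing in the labels says whether replicates are separate cultures or whether a line is more than a single clone, so p-values measure only the spread between these libraries.

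As background, each canonical PRC1 complex holds a single CBX protein, whose chromodomain binds histone H3 trimethylated at lysine 27, and a single PHC protein, whose SAM domain forms chains that cluster Polycomb-bound chromatin. CBX7 is known as the main CBX protein of undifferentiated mouse stem cells, whereas Cbx2 and Cbx8 are themselves Polycomb-bound genes in these cells and are known to take over during differentiation. SCMH1 is a substoichiometric partner that joins through its own SAM domain.

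Promoters of Polycomb-bound genes are often rich in CG dinucleotides, so the promoter sequences of 4 members are shown. Cbx6 and Cbx7, which are neighbours on the same strand of chromosome 15, fell together after ATRA, Cbx8 was the rarest member with the largest fold differences between lines, and Phc1 was the most abundant member. The windows are RefSeq sequences on GRCm38.p6 and run from 250 bases before to 50 bases after a RefSeq start site of the gene. They lie on the minus strand at chr15:79834284-79834583 (Cbx6), chr15:79932597-79932896 (Cbx7), chr11:119040864-119041163 (Cbx8) and chr6:122340178-122340477 (Phc1). The Cbx7 window lies inside the gene as annotated in GENCODE M21, which spans 79915807 to 79971119, and not at its start. Capitals mark each CG, a motif that reads the same on both strands.
Cbx6: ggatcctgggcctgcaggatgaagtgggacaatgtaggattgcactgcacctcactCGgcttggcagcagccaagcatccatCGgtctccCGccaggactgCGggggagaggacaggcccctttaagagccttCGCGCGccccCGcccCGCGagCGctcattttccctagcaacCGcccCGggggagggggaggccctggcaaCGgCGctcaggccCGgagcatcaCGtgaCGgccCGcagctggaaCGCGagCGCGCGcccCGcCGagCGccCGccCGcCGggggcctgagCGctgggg
Cbx7: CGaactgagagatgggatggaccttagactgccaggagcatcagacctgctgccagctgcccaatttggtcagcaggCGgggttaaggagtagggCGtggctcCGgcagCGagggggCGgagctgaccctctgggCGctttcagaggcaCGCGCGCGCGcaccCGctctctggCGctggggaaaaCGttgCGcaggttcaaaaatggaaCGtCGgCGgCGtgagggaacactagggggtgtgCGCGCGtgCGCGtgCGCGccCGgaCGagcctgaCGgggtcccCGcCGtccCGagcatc
Cbx8: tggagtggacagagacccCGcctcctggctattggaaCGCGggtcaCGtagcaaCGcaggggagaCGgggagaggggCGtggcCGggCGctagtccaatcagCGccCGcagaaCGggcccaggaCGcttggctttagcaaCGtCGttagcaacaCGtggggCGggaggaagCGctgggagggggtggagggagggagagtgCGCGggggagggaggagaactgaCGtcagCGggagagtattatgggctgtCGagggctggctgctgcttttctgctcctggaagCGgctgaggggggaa
Phc1: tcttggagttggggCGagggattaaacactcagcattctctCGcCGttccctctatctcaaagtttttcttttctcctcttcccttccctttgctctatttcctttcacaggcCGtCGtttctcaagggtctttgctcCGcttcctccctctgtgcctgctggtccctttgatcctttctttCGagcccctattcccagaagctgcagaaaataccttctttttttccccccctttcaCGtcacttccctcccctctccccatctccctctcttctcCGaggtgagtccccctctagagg
The CG motif occurred 31 times in the Cbx6 window, a number reached by 10.6% of all 32851 promoter windows of this length. It occurred 33 times for Cbx7 (reached by 8.56% of windows) and 24 times for Cbx8 (reached by 20% of windows). The Phc1 window held 9, which 45.8% of windows reach. A RefSeq window was found for 7 of the 8 members, and the Phc3 window held 15 CG. Phc2 and Scmh1 each have several start sites in the table, with 19, 2 and 45 CG in the windows of Phc2 and 54 and 0 in those of Scmh1, so a single CG content does not describe these genes.

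The libraries held between 15361598 and 29614420 counts in mESC and between 15612700 and 31338825 in ATRA. The summed level of 8 markers of naive stem cells, in counts per 1000000 (CPM), was 4080 to 5340 in mESC libraries and 514 to 888 in ATRA libraries, while 6 retinoic acid response genes went from 2.63 to 8.63 CPM to 633 to 996 CPM, and no library lay in the range of the other state. Summed over 6 endoderm markers the level was 3.65 to 11.1 CPM in mESC and 75.3 to 158 CPM after ATRA. Over 7 fibroblast markers it was 1.72 to 15.8 and 5.97 to 25 CPM. The 6 neural markers summed to 195 to 281 CPM in mESC and 137 to 233 CPM in ATRA, with 1 of them (Neurog2) at 0 in every mESC library, and the 6 trophoblast markers to 92.8 to 142 and 41.7 to 104 CPM. The neural sum hides opposite moves. Tubb3 (128 to 199 CPM in mESC, 32.9 to 76.6 CPM in ATRA) and Olig2 (27.9 to 77.1, 4.37 to 10.8) were lower after ATRA. Pax6 (0.066 to 1.74, 13.3 to 28.4) and Sox1 (1.95 to 7.47, 53.8 to 133) were higher, and the ranges of Nes overlapped. The part of these other cell types in the ATRA results was not tested, and in bulk RNA fewer cells of a type cannot be told from less RNA per cell. Ezh2 itself was at 281 CPM ± 4.11 (SD, n = 3) in het, 302 ± 0.871 in parental, 439 ± 22.8 in WT and 360 ± 17.6 to 560 ± 49.6 in the variant lines in mESC, counts that do not tell the alleles and the added protein apart. Each library's log2 levels, taken relative to the mean of all libraries of its state, were rank-correlated with the GC content of the genes. This relative correlation moved with the lines: it was 0.44 to 0.65 in the mESC WT libraries and between -0.68 and 0.06 in the mESC Weaver libraries. Most members are GC-rich, from 54.9% (Phc1) to 60.3% (Phc2) of exonic bases against 50.8% in Scmh1 and 47.6% in Phc3, so values from a fit with this trend removed stand beside the main results that they change most. A677T replicate 3 in mESC and K634E replicate 3 in ATRA stood apart from the other libraries of their groups, with GC correlations of -0.68 and -0.72, and results that rest on them are also given without them.

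Phc1 and Cbx7 were the main transcripts of their families in every group. Phc1, the polyhomeotic gene tied to stem cell identity, ranged from 444 to 574 CPM in the 24 mESC libraries and from 394 to 562 CPM in the 24 ATRA libraries. Cbx7 followed at 116 to 285 CPM in mESC and 81 to 254 CPM in ATRA. The other members lay lower, with Cbx6 at 51.6 to 82.7 CPM in mESC, Cbx2 at 13.2 to 40, Phc2 at 20.8 to 38.4, Phc3 at 17.3 to 32.5 and Scmh1 at 16.2 to 25.1. Cbx8 was close to the lower limit of detection, at 0 to 21 counts (0 to 1.04 CPM) per mESC library and 7 to 33 counts (0.306 to 1.71 CPM) per ATRA library. The library with no Cbx8 count, K634E replicate 2, had a depth that allows up to 0.132 CPM (3 counts), and this floor covers counting error only.

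**Figure D1:**
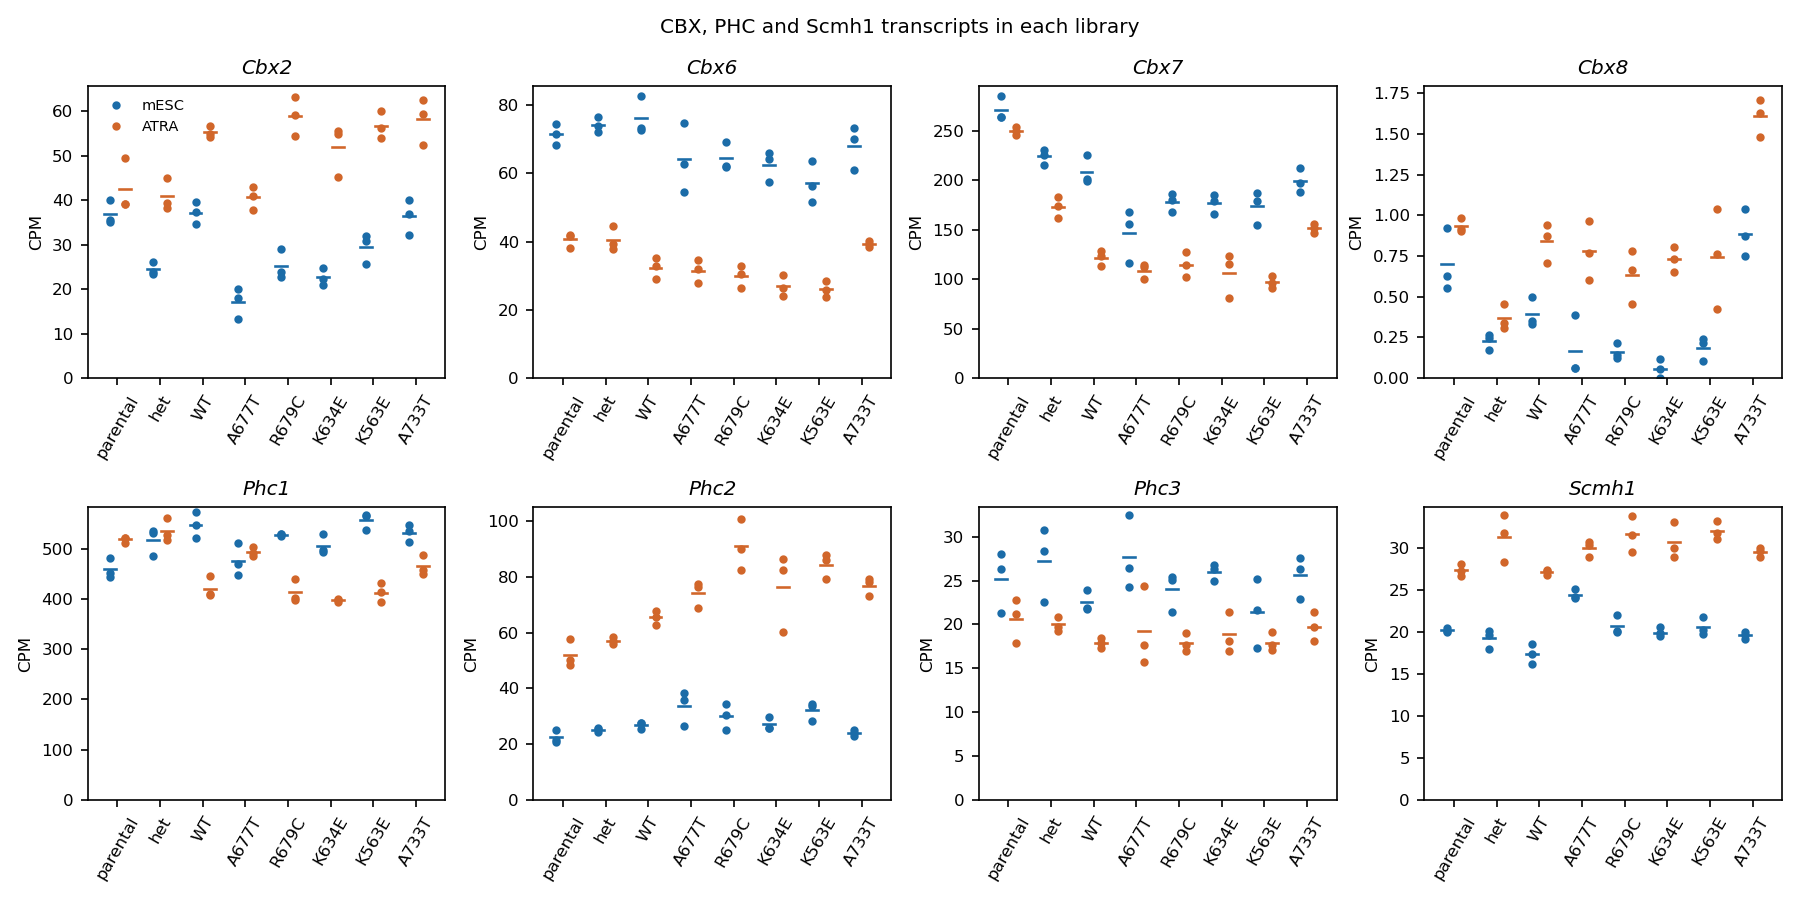
Level of each gene in CPM (vertical axes, starting at 0) by line (horizontal axes). Points are single libraries, 3 per line and state, and bars are their means. Blue mESC points of Cbx6 lie above the orange ATRA points in all 8 lines, those of Phc2 and Scmh1 lie below them in all 8 lines, and the Cbx8 axis spans less than 2 CPM.

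Levels can be set against each other only per length, so each gene's CPM was divided by the kilobases of its exons. In the mESC WT libraries, the summed level per kilobase of Cbx2, Cbx6, Cbx7 and Cbx8 was 66.7% ± 1.17 Cbx7, 18.2% ± 1.42 Cbx2, 14.9% ± 0.255 Cbx6 and 0.222% ± 0.0366 Cbx8 (SD, n = 3). After ATRA the WT shares were 53.5% ± 0.826 Cbx7 and 37.2% ± 1.04 Cbx2. In the parental line Cbx7 was at 72.8% ± 0.354 in mESC and 73.2% ± 2.37 in ATRA, and Cbx2 was at 15.1% ± 0.373 and 19% ± 2.32. K563E had the largest Cbx2 share of all groups, 43.2% ± 1.39 after ATRA, beside 48.3% ± 1.65 Cbx7. Among the PHC genes, Phc1 made up 95.3% ± 0.251 of the WT sum per kilobase in mESC and 88.5% ± 0.308 after ATRA, and Phc2 made up 3.51% ± 0.245 and 10.3% ± 0.259. These shares are descriptions and were not tested.

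**Figure D2:**
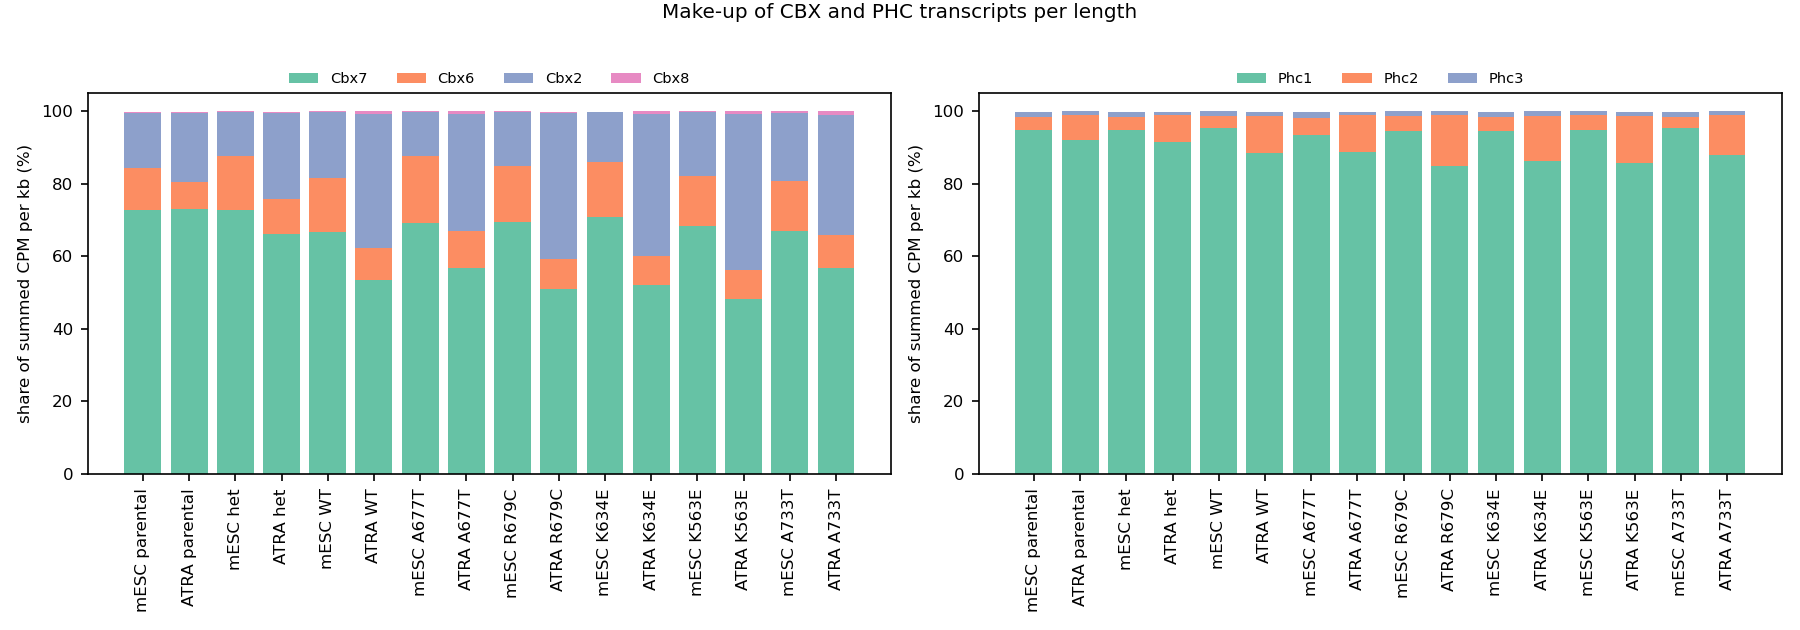
Mean share (%) of each paralogue in the summed CPM per kilobase of exon of the 4 CBX genes (left) and 3 PHC genes (right), for each line in mESC and ATRA (3 libraries per bar). Cbx7 is the largest CBX part in all 16 groups and Phc1 the largest PHC part, and the Cbx2 part widens from mESC to ATRA, least in the parental line.

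The response to ATRA was compared within each line. Every gene was fitted across all 48 libraries with edgeR's quasi-likelihood test, and a gene counts as changed at a Benjamini-Hochberg adjusted p under 0.05 over all genes tested. In the WT line all 8 members changed, where 59% of all genes did, with 4 higher and 4 lower. The Cbx6 levels were 73.4, 72.8 and 82.7 CPM in mESC and 35.2, 32.9 and 29.1 CPM after ATRA, and Cbx7 went from 199, 201 and 225 CPM to 123, 128 and 113 CPM. For both genes the states did not overlap. Cbx6, the least studied of these readers, fell by 1.24 on the log2 scale (SE 0.0997, adjusted p = 7.21e-15) and Cbx7 fell by 0.78 (SE 0.103, adjusted p = 1.55e-08). Cbx2, whose protein both reads the mark and compacts nucleosomes, went from 39.6, 34.6 and 37.3 CPM to 55, 56.8 and 54.2 CPM, a rise of 0.58 (SE 0.108, adjusted p = 1.08e-05). Cbx8 had 23 counts in the 3 mESC WT libraries and 56 in the 3 ATRA libraries, and rose by 1.10 (SE 0.367, adjusted p = 0.00931).

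Among the PHC genes of the WT line, Phc2 rose and Phc1 fell after ATRA. Phc2 levels were 27.7, 25.3 and 27.6 CPM in mESC and 65.8, 67.8 and 62.8 CPM after ATRA, an increase of 1.29 on the log2 scale (SE 0.111, adjusted p = 8.52e-14). Phc1 went from 522, 549 and 574 CPM to 410, 446 and 408 CPM, with no overlap, and fell by 0.38 (SE 0.0548, adjusted p = 7.25e-08), or by 0.18 with the GC trend removed. Phc3 fell by 0.34 (SE 0.131, adjusted p = 0.0259). That call was lost without any single library of mESC replicates 1 and 2 or ATRA replicates 1, 2 and 3, with adjusted p between 0.0544 and 0.081. Scmh1 levels of 16.2, 18.5 and 17.4 CPM in mESC became 27.2, 27.4 and 26.7 CPM, a rise of 0.64 (SE 0.0715, adjusted p = 1.4e-10).

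Across the lines, 3 of the 8 members gave the same call everywhere, and for these 3 no library of one state reached the range of the other. The share of all genes that did so was not computed, so this is a description and no particular of these members. Cbx6 fell in 8 of 8 lines, by 0.79 (A733T) to 1.24 (WT) on the log2 scale, Phc2 rose in 8 of 8 lines, by 1.14 (A677T) to 1.69 (A733T), and Scmh1 rose in 8 of 8 lines, by 0.30 (A677T) to 0.70 (het). Cbx2 rose in 7 lines and Cbx7 fell in 7 lines, the exception for both being the parental line, at 0.21 (SE 0.109, adjusted p = 0.102) and -0.12 (SE 0.101, adjusted p = 0.343). Cbx8 rose in the 6 lines with an added EZH2, and had log2 differences of 0.43 in parental and 0.66 in het that did not pass. In K634E, Cbx8 went from 3 counts to 39, a ratio of 14.1 at equal depth with an exact 95% counting interval of 4.47 to 71.1. Such intervals, here and below, rest on counts pooled over libraries and leave out the spread between libraries. Phc1 was the only member called in both directions: it rose by 0.18 in parental (444 to 483 CPM in mESC against 513 to 523 CPM, adjusted p = 0.00559), fell in WT, R679C, K634E, K563E and A733T, and had 0.05 in both het and A677T, neither of which passed. With the GC trend removed the parental value of Phc1 was 0.30, the het value passed at 0.17 (adjusted p = 0.00357) and the A733T value went from -0.20 to -0.10 and did not pass (adjusted p = 0.0691). Phc3 fell in 6 lines and did not pass in parental or K563E. The GC correction brought the parental values of Cbx2 (0.30, adjusted p = 0.0003) and Phc3 (-0.27, adjusted p = 0.0421) past the threshold.

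The number of changed members beside the share of all genes that changed was 4 of 8 in parental (55.2%), 6 in het (56.8%), 7 in A677T (55.3%), 8 in R679C (57.5%), 8 in K634E (57.4%), 7 in K563E (57.8%) and 8 in A733T (55.8%). Between 55.2% and 59% of genes changed in each line, so a high count is no particular of these members. With the replicate number as a block, fitted over all libraries of both states, Cbx2 passed in parental at 0.20 (adjusted p = 0.0385), and Phc3 passed at -0.29 in parental (adjusted p = 0.0162) and -0.25 in K563E (adjusted p = 0.0435). The library correlations allow this pairing in parental and K563E, but not in every line of that fit. In A733T the call for Cbx8 was lost without mESC replicate 1 (adjusted p = 0.0707) or ATRA replicate 3 (0.0544), and that for Phc3 without mESC replicate 3 (0.0591) or ATRA replicate 2 (0.0555). Without mESC replicate 3, the A677T response was 1.07 for Cbx2, -0.61 for Cbx7 and 0.97 for Phc2, and without ATRA replicate 3 the K634E response was 1.28, -0.58 and 1.63 for the same genes, each with the call of the full fit.

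**Figure D3:**
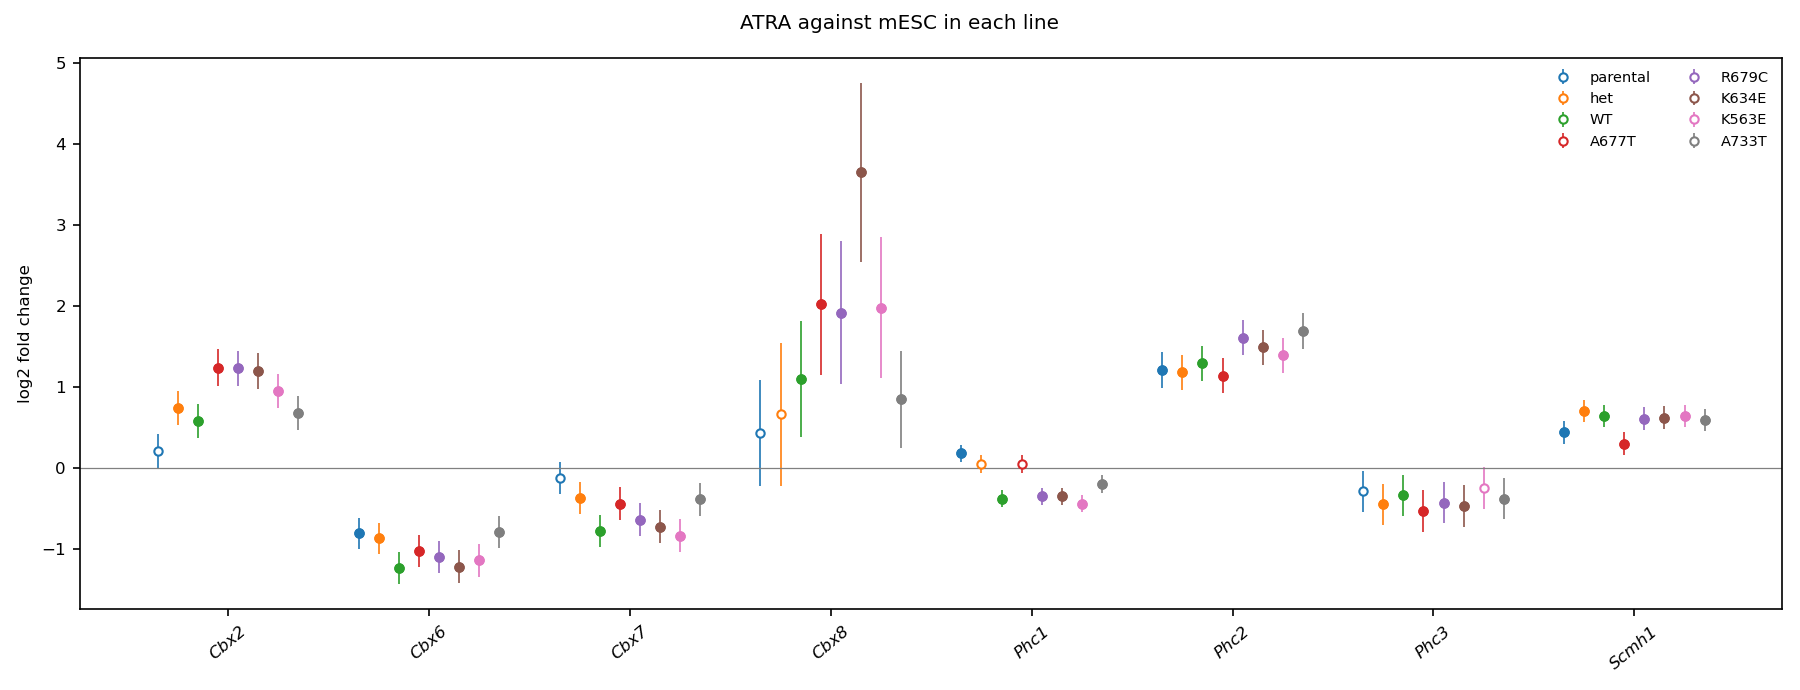
Log2 fold change of ATRA against mESC (vertical axis) for each gene in each of the 8 lines (colours). Bars are 95% intervals, filled points have an adjusted p under 0.05 and open points do not. Cbx6 lies below 0 and Phc2 and Scmh1 above 0 in all lines, while Phc1 lies on either side of 0.

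Weaver lines were compared with the WT line in each state, so that both sides carry an added EZH2. The clone, the level of Ezh2 RNA and the GC trend may also differ between lines and cannot be told apart from the variant. In undifferentiated cells Cbx2 was lower in the Weaver lines than in WT. The WT libraries held 39.6, 34.6 and 37.3 CPM of Cbx2, A677T 18, 20.1 and 13.2 CPM, K634E 24.7, 22.4 and 21 CPM, R679C 29, 22.8 and 23.9 CPM, and K563E 30.9, 32 and 25.7 CPM. None of the 12 Weaver libraries reached the lowest WT library. Averaged over the 4 lines with equal weight, Cbx2 fell by 0.64 on the log2 scale (SE 0.0873, adjusted p = 1.62e-06), and by 0.37 with the GC trend removed (adjusted p = 2.19e-06). It passed in each of the 4 lines, from -1.07 in A677T (SE 0.119, adjusted p = 7.1e-08) to -0.30 in K563E (SE 0.114, adjusted p = 0.0447). Removing the GC trend moved R679C from -0.53 to -0.32 (adjusted p = 0.00129) and K634E from -0.68 to -0.37 (adjusted p = 0.000415). The K563E call was lost with the GC trend removed (-0.03, adjusted p = 0.769) and without WT replicate 1, WT replicate 3 or K563E replicate 3 (adjusted p from 0.0799 to 0.217). Without A677T replicate 3 the A677T value was -0.96 (adjusted p = 9.7e-08). In order of their mean, WT, parental and A733T lay highest in mESC with overlapping libraries, K563E followed apart from them, K563E, R679C, het and K634E overlapped in turn, and A677T lay lowest and apart.

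Cbx8, whose protein is the CBX subunit gained on Polycomb targets in differentiating cells, was also lower in the undifferentiated Weaver lines. Its level was 0.354, 0.334 and 0.498 CPM in WT, and the group means were 0.17 CPM ± 0.187 in A677T, 0.161 ± 0.0495 in R679C, 0.0575 ± 0.0583 in K634E and 0.188 ± 0.0727 in K563E (SD, n = 3). These means rest on 10, 10, 3 and 10 counts against 23 in WT. The mean difference passed at -1.50 (SE 0.44, adjusted p = 0.00738) and at -1.29 with the GC trend removed (adjusted p = 0.0225), and was lost without WT replicate 3 (-1.33, adjusted p = 0.0587). Of the single lines K634E passed (adjusted p = 0.00581), with a WT level 7.53 times its own and an exact 95% counting interval of 2.28 to 39.2, and this call was lost without its replicate 2 (adjusted p = 0.0551). In A677T replicate 2, at 0.386 CPM, lay within the WT range, and the other 11 Weaver libraries lay below it.

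The remaining members differed less in the undifferentiated Weaver lines, and several of these differences depended on the GC trend. WT libraries held 72.8 to 82.7 CPM of Cbx6 against 51.6 to 74.7 CPM in the 12 Weaver libraries, and Cbx7 at 199 to 225 and 116 to 187 CPM, so that a single Weaver library (A677T replicate 2) reached the WT range of Cbx6 and none reached that of Cbx7. Their mean differences passed at -0.26 (SE 0.0712, adjusted p = 0.0039) and -0.27 (SE 0.0696, adjusted p = 0.00263). With the GC trend removed both became -0.02 and did not pass (adjusted p = 0.783 and 0.681). Scmh1 was at 16.2, 18.5 and 17.4 CPM in WT and at 19.5 to 25.1 CPM in the Weaver libraries, all of which lay above the WT libraries. It rose by 0.33 on average (SE 0.0624, adjusted p = 0.000126), by 0.35 with the GC trend removed, and passed in 4 of 4 lines, most in A677T (0.53, SE 0.0773, adjusted p = 5e-06). Scmh1 has a GC content of 50.8%. WT had the lowest Scmh1 mean of the 8 lines in mESC, so a level above WT was not particular to the Weaver lines. The parental (20 to 20.4 CPM) and A733T (19.1 to 20 CPM) libraries also lay above the WT libraries, while het (17.9 to 20.1 CPM) overlapped them. R679C, K563E and K634E overlapped with parental, and A677T alone lay above all other lines.

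Phc2 passed on average in the mESC Weaver lines at 0.22 (SE 0.0894, adjusted p = 0.0437) and at 0.56 with the GC trend removed (adjusted p = 3.26e-10). With the GC trend removed Phc2 also passed in each of the 4 lines, at 0.43 (K634E) to 0.75 (A677T). The main call was lost without any single library of WT replicates 1 to 3, A677T replicates 1 and 2, R679C replicates 1 and 2, K634E replicates 1 and 3 or K563E replicates 1 and 2, with adjusted p between 0.0568 and 0.171. Phc1 had -0.05 (adjusted p = 0.393), which became 0.13 with the GC trend removed and then passed (adjusted p = 0.0159). Phc3 had 0.17 (SE 0.107, adjusted p = 0.216). In all 6 of 8 members changed on average, 2 higher and 4 lower, against 44.4% of all genes, and 3 were higher and 2 lower with the GC trend removed. The median over the members was -0.16, beside a median of 0.00 over all genes tested. Mitochondrial genes held 1.48% to 1.81% of counts in the mESC WT libraries, 1.99% to 2.09% in R679C, 2.34% to 2.59% in K634E, 1.93% to 2.15% in K563E and 1.67% to 2.7% in A677T, and their part in these differences was not tested.

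By line in mESC, 6 members changed in A677T (44.6% of all genes), 2 in R679C (23.7%), 4 in K634E (29.3%) and 4 in K563E (34.5%). Beside Cbx2 and Scmh1, A677T had a fall of Cbx7 (-0.47, SE 0.0902, adjusted p = 0.000171) that was -0.18 with the GC trend removed and -0.35 without replicate 3. Its rise of Phc2 (0.36, adjusted p = 0.0105) was 0.75 with the GC trend removed and was lost without A677T replicate 1 (adjusted p = 0.0734) or 2 (0.129). Its small changes of Phc1 (-0.16, adjusted p = 0.0233) and Phc3 (0.33, adjusted p = 0.0456) were lost with the GC trend removed, at 0.05 and 0.21, and without A677T replicate 3, at -0.15 and 0.17. They were also lost without WT replicate 2 or 3 for Phc1 and without WT replicate 1 or 3 or A677T replicate 1 for Phc3 (adjusted p from 0.0671 to 0.147). Cbx6 fell in K634E (-0.26, adjusted p = 0.0376) and K563E (-0.38, adjusted p = 0.00215), and Phc2 rose in K563E (0.29, adjusted p = 0.0432). With the GC trend removed the Cbx6 values were 0.02 and -0.14 and the Phc2 value was 0.62, and Phc1 in K563E passed at 0.23 (adjusted p = 0.000557), from 0.06. The K634E call for Cbx6 was lost without WT replicate 2 or 3 or K634E replicate 2, and the K563E call for Phc2 without WT replicates 1, 2 or 3 or K563E replicates 1 or 2 (adjusted p from 0.0516 to 0.2). The single-line calls for Scmh1 were lost without WT replicate 1 or R679C replicate 3 in R679C, without WT replicate 1 or 3 or any K634E replicate in K634E, and without K563E replicate 3 in K563E (adjusted p from 0.0563 to 0.13).

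**Figure D4:**
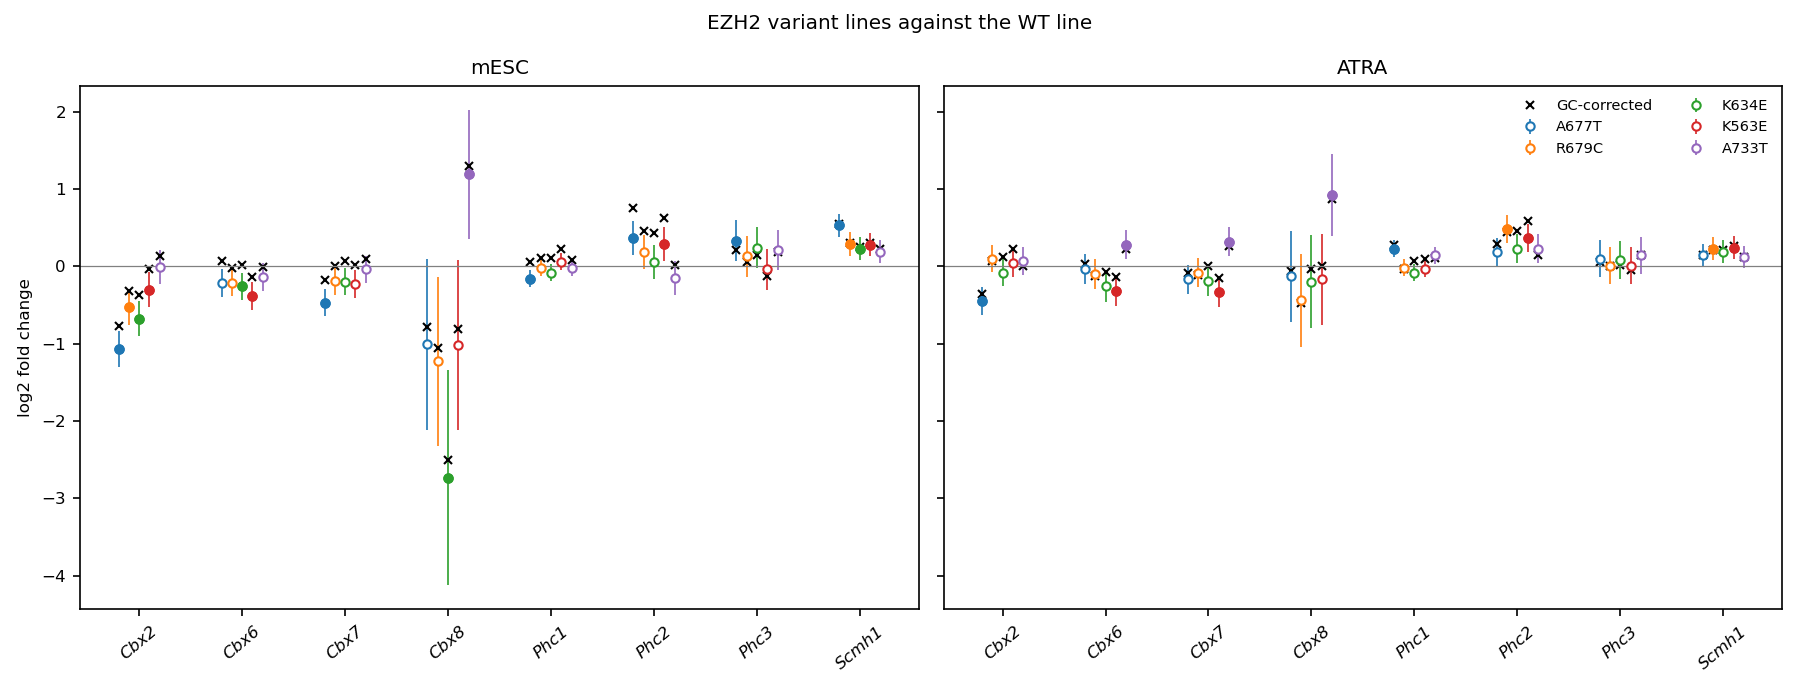
Log2 fold change of each variant line against the WT line (vertical axis) for each gene in mESC (left) and ATRA (right). Bars are 95% intervals, filled points have an adjusted p under 0.05, and crosses are the values with the GC trend removed. In mESC, Cbx2 lies below 0 in the 4 Weaver lines and close to 0 in A733T, and Cbx8 lies below 0 in the Weaver lines and above 0 in A733T, while the crosses of Cbx6 and Cbx7 move towards 0.

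After ATRA the Weaver lines differed from WT in fewer members. Phc2 was at 65.8, 67.8 and 62.8 CPM in WT and at 68.8 to 77.4 CPM in A677T, 82.6 to 101 CPM in R679C, 60.2 to 86.4 CPM in K634E and 79.4 to 88.1 CPM in K563E. K634E replicate 3, at 60.2 CPM, lay below the WT libraries, and every other Weaver library lay above them. Phc2 rose by 0.31 on average (SE 0.0744, adjusted p = 0.00292). Scmh1 rose by 0.20 (SE 0.0594, adjusted p = 0.0154), a call that was lost without any single WT library (adjusted p from 0.0617 to 0.0646). These were the 2 changed members, against 20.5% of all genes, and the median over the members was -0.04, beside 0.00 over all genes. WT again had the lowest Scmh1 mean of the 8 lines, at 27.1 CPM, beside 27.3 CPM in parental and 31.3 CPM in het. Cbx2, which was lower in the undifferentiated Weaver lines, had -0.10 (95% interval -0.24 to 0.04, adjusted p = 0.363), and Cbx8 had -0.24 (95% interval -0.69 to 0.22, adjusted p = 0.535). Cbx7 had -0.19 (adjusted p = 0.0772), and passed without K634E replicate 3 (-0.15, adjusted p = 0.046). Cbx6 had -0.18 (adjusted p = 0.101), Phc1 0.03 (0.739) and Phc3 0.05 (0.782). The means of 5 of the 6 endoderm markers were below WT in each of the 4 Weaver lines after ATRA. Gata6 was at 78.7 CPM ± 2.44 in WT (SD, n = 3) and had means of 33.1 to 46.8 CPM in the Weaver lines, Sox17 was at 23 CPM ± 0.805 against 9.17 to 11 CPM, and Gata4 was at 24.5 CPM ± 2.46 against 9.34 to 12.4 CPM. Dab2, the exception, had 18.5 CPM ± 0.708 in WT, and its Weaver means were 16.4 to 20 CPM. The part of these markers in the differences between the lines was not tested.

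By line after ATRA, 2 members changed in A677T (19.4% of all genes), 2 in R679C (10.3%), 0 in K634E (15%) and 4 in K563E (20.5%). In A677T Cbx2 remained below WT, at 43.1, 41 and 37.9 CPM against 55, 56.8 and 54.2 CPM (-0.45, SE 0.0924, adjusted p = 0.000782), and Phc1 was above it, at 493, 505 and 486 CPM against 410, 446 and 408 CPM (0.23, SE 0.0554, adjusted p = 0.00356). Phc2 in A677T had 0.18 (adjusted p = 0.19), and passed at 0.29 with the GC trend removed (adjusted p = 3.01e-05). In R679C Phc2 rose by 0.48 (SE 0.092, adjusted p = 0.000647) and Scmh1 by 0.23 (adjusted p = 0.0428), the second of which was lost without any WT library or R679C replicate 2 or 3 (adjusted p from 0.0916 to 0.252). In K563E Phc2 (0.37, adjusted p = 0.00504) and Scmh1 (0.24, adjusted p = 0.0209) rose, and Cbx6 (-0.32, adjusted p = 0.0236) and Cbx7 (-0.33, adjusted p = 0.0179) fell. The fall of Cbx6 was -0.14 with the GC trend removed and did not pass (adjusted p = 0.156), and that of Cbx7 was -0.15 and passed (adjusted p = 0.0333). Phc2 was then at 0.58 (adjusted p = 2.36e-11), and Cbx2 passed at 0.23 (adjusted p = 0.0116), from 0.04. In K563E, the calls for Cbx6 were lost without WT replicates 1 or 2 or K563E replicates 2 or 3, those for Cbx7 without WT replicates 1 or 2 or K563E replicates 1 or 3, and those for Scmh1 without any WT library or K563E replicate 2 (adjusted p from 0.0528 to 0.139). For K634E, 3 members had an unadjusted p under 0.05 in edgeR and DESeq2 called 0. The share of all genes under that unadjusted p was not computed. Without its replicate 3 Phc2 passed there at 0.37 (adjusted p = 0.00304), and with the GC trend removed Phc2 (0.46, adjusted p = 1.82e-08) and Scmh1 (0.21, adjusted p = 0.0357) did.

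A733T differed from WT mainly in Cbx8, in the opposite direction to the Weaver lines. In mESC its Cbx8 levels were 0.748, 1.04 and 0.876 CPM against 0.354, 0.334 and 0.498 CPM in WT, from 51 and 23 counts, and the libraries did not overlap. The ratio at equal depth was 2.28, with an exact 95% counting interval of 1.37 to 3.92. The difference was 1.19 (SE 0.425, adjusted p = 0.0488), which was lost without any single A733T or WT library (adjusted p from 0.0731 to 0.137). Cbx8 was the 1 member changed, against 19.3% of all genes, and DESeq2 called 0. Of the others, Cbx2 had -0.01, Cbx6 -0.14, Cbx7 -0.04, Phc1 -0.02, Phc2 -0.15, Phc3 0.21 and Scmh1 0.19 (adjusted p from 0.0825 to 0.975), and Scmh1 passed with the GC trend removed (0.23, adjusted p = 0.0287). The parental line, with 0.627, 0.924 and 0.556 CPM of Cbx8, overlapped with A733T. After ATRA, Cbx8 was at 1.63, 1.48 and 1.71 CPM in A733T and 0.71, 0.871 and 0.94 CPM in WT, and 3 members changed, all higher, against 17.7% of all genes. Cbx8 rose by 0.92 (SE 0.272, adjusted p = 0.0184), Cbx7 by 0.32 (SE 0.0965, adjusted p = 0.0218) and Cbx6 by 0.28 (SE 0.0975, adjusted p = 0.0434). The Cbx7 libraries lay at 147 to 156 CPM in A733T and 113 to 128 CPM in WT, and the Cbx6 libraries at 38.4 to 40.3 and 29.1 to 35.2 CPM. With the replicate number as a block, fitted over all ATRA libraries, Phc1 (0.14, adjusted p = 0.0425) and Phc2 (0.23, adjusted p = 0.0124) also passed, which makes 5. The library correlations allow this pairing for A733T and WT, but not for every line in that fit. Cbx2 had 0.07, Phc3 0.14 and Scmh1 0.12 (adjusted p = 0.661, 0.48 and 0.281), and with the GC trend removed Phc2 was at 0.14 and passed (adjusted p = 0.0363). Without single libraries, the Cbx8 call was lost for WT replicate 1 or A733T replicate 3, that of Cbx7 for WT replicates 1 or 3 or any A733T replicate, and that of Cbx6 for WT replicates 2 or 3 or any A733T replicate (adjusted p from 0.0528 to 0.214).

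Both sets of comparisons share the WT libraries, so A733T was also compared with the mean of the 4 Weaver lines, a comparison added after the values were seen. In mESC, 4 members passed, against 50.3% of all genes. Cbx2 was higher in A733T by 0.64 (SE 0.0876, adjusted p = 8.32e-07), with A733T libraries at 32.1, 40 and 36.9 CPM and no Weaver library above 32 CPM. Cbx8 was higher by 2.69 (SE 0.368, adjusted p = 7.73e-07), a fitted value that includes the 3 counts of K634E. Cbx7 was higher by 0.23 (adjusted p = 0.00788, lost without A733T replicate 2 at 0.0819), and by 0.11 with the GC trend removed (adjusted p = 0.0106), and Phc2 was lower (-0.37, adjusted p = 0.00126). Cbx6 had 0.13, Phc1 0.03, Phc3 0.04 and Scmh1 -0.14 (adjusted p from 0.0647 to 0.782). After ATRA, 4 members passed, against 48.5% of all genes, all higher in A733T. They were Cbx8 (1.16, SE 0.212, adjusted p = 5.17e-05), Cbx7 (0.51, SE 0.0742, adjusted p = 2.62e-06), Cbx6 (0.46, SE 0.0759, adjusted p = 1.13e-05) and Phc1 (0.12, adjusted p = 0.0257). The Phc1 value fell to 0.01 with the GC trend removed, and its call was lost without K634E replicate 2, A733T replicate 1 or A733T replicate 3 (adjusted p from 0.0693 to 0.202). Cbx6 and Cbx7 kept their calls with the GC trend removed, at 0.30 and 0.35, and Phc2, at -0.08 before, then also passed (-0.30, adjusted p = 6.79e-08). Cbx2 had 0.17 (adjusted p = 0.0504), Phc3 0.09 (0.46) and Scmh1 -0.08 (0.29).

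Loss of an Ezh2 allele and addition of wild-type EZH2 were compared through the het line, whose libraries both comparisons share. The clone may also differ between these lines and cannot be told apart from the allele or the added EZH2. In mESC, Cbx2 was at 40, 35.5 and 35.2 CPM in parental, 26.1, 23.5 and 23.9 CPM in het and 39.6, 34.6 and 37.3 CPM in WT. The het libraries lay below all of the others. Cbx2 fell by 0.59 in het against parental (SE 0.115, adjusted p = 0.00199) and rose by 0.60 in WT against het (SE 0.114, adjusted p = 0.000771), and the GC trend made little difference to either (-0.59 and 0.55). It was the 1 member changed in each, against 3.44% of all genes in the first comparison and 12.1% in the second. Cbx8 had 37 counts in parental, 14 in het and 23 in WT in mESC, and its difference of -1.59 between het and parental did not pass (adjusted p = 0.0721). The parental and het libraries did not overlap, and the parental level was 3.05 times the het level (exact 95% counting interval 1.61 to 6.11). That interval covers counting error only and not the spread between libraries. With the GC trend removed, 4 members passed in het against parental: Cbx2, Cbx7 (-0.28, adjusted p = 3.44e-05), Cbx8 (-1.59, adjusted p = 0.0444) and Phc1 (0.17, adjusted p = 0.0389). These log2 values were the same with and without the correction. Cbx6 had 0.05, Phc2 0.15, Phc3 0.12 and Scmh1 -0.07 in het against parental (adjusted p from 0.67 to 0.909). In WT against het Cbx6 had 0.04, Cbx7 -0.11, Cbx8 0.78, Phc1 0.08, Phc2 0.09, Phc3 -0.28 and Scmh1 -0.15 (adjusted p from 0.194 to 0.84), and Cbx7 passed with the GC trend removed (-0.14, adjusted p = 0.018). Phc1 lies on chromosome 6, as does Ezh2, where the median gene was 0.08 higher in het than in parental on the log2 scale against -0.02 to 0.02 on the other chromosomes. Phc1 had 0.17 there (adjusted p = 0.113), and the part of the chromosome in this value was not tested.

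After ATRA, het had less Cbx7 and Cbx8 than parental. Cbx7 was at 246, 254 and 250 CPM in parental, 162, 174 and 183 CPM in het and 123, 128 and 113 CPM in WT, so that the 3 lines were apart and in this order. The steps were -0.54 from parental to het (SE 0.0952, adjusted p = 0.000454) and -0.51 from het to WT (SE 0.0961, adjusted p = 0.000553). Cbx7 in the WT line was thus further from parental than in het. Cbx8 had 64 counts in parental, 27 in het and 56 in WT. It fell by 1.37 in het (SE 0.319, adjusted p = 0.007), and rose by 1.23 in WT against het (SE 0.325, adjusted p = 0.00925). Both Cbx8 calls were lost without het replicate 1 (adjusted p = 0.0601 and 0.0528). These were the 2 changed members in het, against 6.25% of all genes. Cbx2 had -0.06, Cbx6 -0.01, Phc1 0.04, Phc2 0.13, Phc3 -0.05 and Scmh1 0.19 (adjusted p from 0.139 to 0.977), and Phc2 passed with the GC trend removed (0.17, adjusted p = 0.0324). In WT against het 5 members changed, against 16.4% of all genes: Cbx2 rose by 0.44 (adjusted p = 0.00127), Phc1 fell by 0.34 (SE 0.0554, adjusted p = 6.78e-05) from 518, 529 and 562 CPM to 410, 446 and 408 CPM, and Cbx6 fell by 0.32 (adjusted p = 0.0202). Leaving out het replicate 1 (0.127) or WT replicate 3 (0.131) ended the Cbx6 call. Phc2 had 0.20 (adjusted p = 0.149), Phc3 -0.16 (0.415) and Scmh1 -0.20 (0.0564), and with the GC trend removed Phc2 (0.26, adjusted p = 0.000221) and Scmh1 (-0.18, adjusted p = 0.047) passed.

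Whether the Weaver lines responded to ATRA differently from WT was tested as an interaction over all 48 libraries. Cbx2 was the 1 member that passed, against 7.07% of all genes, of which 64.2% were higher in the Weaver lines and 53.1% with the GC trend removed. It rose more in the Weaver lines than in WT, by 0.58 on the log2 scale (SE 0.121, adjusted p = 0.00119), and by 0.39 with the GC trend removed (adjusted p = 0.000364). The Cbx2 rise was 1.24 in A677T, 1.23 in R679C, 1.20 in K634E and 0.95 in K563E, against 0.58 in WT. The levels of Cbx2 in ATRA were 54.5 to 63.2 CPM in R679C, 54 to 60.1 CPM in K563E and 45.3 to 55.5 CPM in K634E. All of these overlap the 54.2 to 56.8 CPM of WT, so without the GC correction these lines differed from WT at the start more than at the end. With the GC trend removed K563E went the other way, at -0.03 in mESC (adjusted p = 0.769) and 0.23 in ATRA (adjusted p = 0.0116). The interaction value of Cbx2 was 0.54 without mESC A677T replicate 3 and 0.61 without ATRA K634E replicate 3, and passed in both cases. Cbx8 had 1.30 (SE 0.457) and did not pass (adjusted p = 0.0761). Cbx6 had 0.12, Cbx7 0.11, Phc1 0.11, Phc2 0.12, Phc3 -0.08 and Scmh1 -0.10 (adjusted p from 0.313 to 0.784). For A733T no member passed in edgeR, with 0 of 8 against 3.17% of all genes at the adjusted threshold. An unadjusted p under 0.05 was held by 4 members, but the share of all genes under it was not computed. DESeq2 called 1. The largest value was that of Cbx6, 0.44 (95% interval 0.17 to 0.72, adjusted p = 0.0693), and with the GC trend removed Cbx6 (0.29, adjusted p = 0.0382) and Cbx7 (0.22, adjusted p = 0.041, from 0.38) passed. Cbx2 had 0.10, Cbx8 -0.25, Phc1 0.18, Phc2 0.40, Phc3 -0.04 and Scmh1 -0.05 (adjusted p from 0.171 to 0.944).

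Cbx2 and Cbx8 lie 5.04 kb apart on chromosome 11 (GRCm38), Cbx2 on the plus strand at 119022962 to 119031270 and Cbx8 on the minus strand at 119036305 to 119040969. Both were lower in the undifferentiated Weaver lines than in WT. In mESC A733T against WT, Cbx8 had 1.19 (adjusted p = 0.0488 in edgeR) and Cbx2 had -0.01 (95% interval -0.23 to 0.21). That Cbx8 call was lost without any single A733T or WT library, and DESeq2 called 0 members.

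The other PRC1 genes were summarised as a list of 17, which holds RING and PCGF subunits and partners of the variant complexes. In the mESC Weaver lines 6 rose and 3 fell, which makes 9 of 17 against 44.4% of all genes, with a median of 0.10 beside 0.00 over all genes. The largest rises were Rnf2, the ubiquitin ligase of the core (0.49), Auts2 (0.46) and Yaf2 (0.33), and the falls were Bcorl1 (-0.34), Pcgf1 (-0.33) and Pcgf2 (-0.17). With the GC trend removed, Rnf2 was at 0.19, and Yaf2 (0.13), Bcorl1 (-0.19) and Pcgf2 (0.03) did not pass. In the ATRA Weaver lines 3 of 17 rose, against 20.5% of all genes changed, which were Auts2 (0.38), Bcor (0.24) and Kdm2b (0.20). In mESC A733T 3 rose and 5 fell, which makes 8 of 17 against 19.3% of all genes, with Pcgf5 (0.77), Bmi1 (0.67) and Rybp (0.21) as the rises and Auts2 (-0.32), L3mbtl2 (-0.31) and Pcgf2 (-0.27) as the largest falls. After ATRA 8 of the 17 rose and 5 fell in WT, 13 in all, against 59% of all genes: Yaf2 (2.42), Bmi1 (1.56) and E2f6 (0.77) rose most, and L3mbtl2 (-0.84), Pcgf2 (-0.82) and Bcorl1 (-0.56) fell most. Bmi1 and Pcgf2 encode alternative PCGF subunits of canonical PRC1.

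The heterochromatin chromobox genes Cbx1, Cbx3 and Cbx5, whose proteins read another histone mark, served as chromodomain genes outside Polycomb. Of the 3, Cbx3 alone passed in the mESC Weaver lines (0.27, adjusted p = 0.0118), against 44.4% of all genes, and it had -0.04 with the GC trend removed, where Cbx5 passed instead (-0.13, adjusted p = 0.0217, from 0.10). Of 6 relatives of Scmh1 with MBT or SAM domains, L3mbtl3 (0.68) and Sfmbt1 (0.21) rose and Scml4 (-1.16) and Sfmbt2 (-0.78) fell in the mESC Weaver lines, 4 of 6 against the same background, so these relatives did not all move in the direction of Scmh1. Sfmbt1 (0.09) and Scml4 (-1.13, adjusted p = 0.0548) did not pass with the GC trend removed. Of 4 PRC2 core genes, Ezh2 rose (0.29, or 0.09 and not passing with the GC trend removed) and Ezh1 fell (-0.21) in the mESC Weaver lines, 2 of 4 against 44.4%. Suz12 had 0.11 (adjusted p = 0.347) there and passed at -0.20 with the GC trend removed (adjusted p = 4.96e-05). Eed (-0.96), Ezh1 (-0.47) and Ezh2 (-0.28) fell after ATRA in WT, 3 of 4 against 59%.

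Over the 16 group means of log2 CPM, Phc2 and Scmh1 had a Pearson correlation of 0.95 and Cbx6 and Phc2 one of -0.97, and Cbx2 and Cbx8 had 0.82. Within the 8 lines of mESC alone, Cbx2 and Cbx8 had 0.78 and Cbx7 and Phc2 had -0.89. These are descriptions, as the groups share the state, the WT background and the GC trend. Among 10258 protein-coding genes with a mean of at least 4 CPM, those most like Cbx2 over the 16 groups were Nuak1 and Dusp3 (both 0.97), those most like Cbx6 were AI467606 and Bcl3 (both 0.99), and those most like Cbx7 were Ascc1 and Coasy (both 0.97). Ssbp3 and Efnb2 were closest to Phc2 (both 0.99), Dram2 and Zmym6 to Phc3 (both 0.97), and Rala and Usp47 to Scmh1 (both 0.98). The matches were looser for Cbx8, with Snai1 (0.93) and Pou4f1 (0.92), and for Phc1, with Zfp740 (0.88) and Pml (0.85).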

How the data were processed

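Poly(A) RNA-seq of 48 mouse stem cell libraries was used. The authors deposited a table of raw counts per gene, without normalisation. The submitters' processing notes name STAR 2.7.3a, featureCounts 1.6.4, cutadapt 3.2, DESeq2 1.38.3 and mm10, without their roles. Strandedness and the handling of multi-mapped reads were not given in the sources used here, so Cbx6 (563 exonic bases shared with Npcd on its strand, 5.3%) and Cbx7 (100 bases shared with Apobec3 on the other strand, 1.5%) can share reads with these genes. Of the identifiers, 55141 matched GENCODE M21 and 260 did not. No label fits 6 other columns, which were left unused, and the Y728 line was not analysed here.

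The tests used edgeR 4.0.16 in R 4.3.3 (filterByExpr, TMM, robust quasi-likelihood), with a fit per state on 24 libraries with 16 residual degrees of freedom, and a fit of all 48 libraries for ATRA effects and interactions. Levels are TMM-normalised CPM. The GC correction removed each library's lowess trend (span 0.3) of relative level on gene GC content. On simulated data the test recovered 68% of genes changed 1.5-fold and 91% of those changed 2-fold in the comparison of A677T with WT in mESC (15830 genes). The genes changed there had at least a minimum mean count, which Cbx8 did not reach in mESC. The simulated counts carried no GC trend, so these shares do not give the recovery for the members. Alternatives were RLE size factors, DESeq2 1.42.0, no filter on low counts, GC correction, the replicate number as a block, only the groups compared, and leaving out each library. Replicate numbers were taken to pair libraries where all 3 same-numbered correlations were over 0.1, which held for ATRA R679C, K563E and A733T against WT and for ATRA against mESC in parental, K563E and A733T. The block itself was shared by all libraries of a fit, including lines where this did not hold. Each of the 48 replicate pairs differed beyond sampling noise.

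All 8 members are named in every main comparison, and from the other lists the 3 largest changes per direction past an adjusted p of 0.05. A gene of the PRC1 list is not reported here. The members and lists were chosen with earlier results of these data known.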

Additional observations from a re-analysis of the deposited data

Results flagged for a closer look

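A difference between groups in the response to ATRA was found for Cbx2, where the rise in the 4 Weaver lines exceeded that in the WT line by 0.58 on the log2 scale (SE 0.121, adjusted p = 0.00119 in edgeR). The difference was tested as an interaction term. The rise was larger than that of WT in 4 of 4 Weaver lines.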

How the results depend on the processing

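Over the 28 comparisons and 8 members, no called direction changed with RLE size factors, DESeq2, no filter on low counts, the replicate block, only the groups compared or a library left out. With the GC correction, alone and with the replicate block, 3 did: Phc1 in mESC Weaver lines against WT (0.13 and 0.12), Phc1 in mESC A677T against WT (0.05 in both) and Cbx6 in mESC K634E against WT (0.02 in both); what the GC trend reflects was not tested. Signs of values called in neither fit changed 30 times with the GC correction, 29 with it and the block, 41 over the libraries left out, 3 with no filter, and 1 each with the block and with only the groups compared. The number of changed members moved by over 1.5 times in these cases. With DESeq2 it was 0 for mESC A733T against WT, 2 for mESC het against parental and 1 for the A733T interaction. With no filter on low counts it was 0 for mESC A733T against WT, 2 for mESC het against parental, 1 for R679C against WT in mESC and in ATRA, 1 for ATRA A733T against WT and 2 for the A733T interaction. With the GC correction, alone and with the block, it was 2 for mESC A733T against WT, 4 for mESC het against parental, 2 for mESC WT against het, 2 for ATRA K634E against WT and 2 for the A733T interaction. With only the groups compared it was 3 for mESC A677T against WT, 4 for mESC R679C against WT, 3 for mESC het against parental, 2 for mESC WT against het, 1 for ATRA R679C against WT and 3 for the A733T interaction. With the replicate block it was 4 for the ATRA Weaver lines against WT, 2 for ATRA K634E against WT, 5 for ATRA A733T against WT and 2 for the A733T interaction, and in the paired comparisons the replicate block changed no member call beyond those given with the results. The cause of these moves was not tested.

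Leaving out single libraries gave 4 to 6 changed members for the mESC Weaver lines, 4 to 7 for A677T, 1 to 2 for R679C, 1 to 3 for K634E, 2 to 4 for K563E and 0 to 1 for A733T against WT, 3 to 5 for A733T against the Weaver lines, and 1 each for het against parental and WT against het. In ATRA the ranges were 1 to 3, 2 to 2, 1 to 2, 0 to 1, 1 to 3, 0 to 3, 3 to 5, 1 to 2 and 4 to 5 in the same order. For ATRA against mESC they were 4 to 5 in parental, 6 in het, 7 to 8 in WT, 7 in A677T, 8 in R679C, 8 in K634E, 7 to 8 in K563E and 7 to 8 in A733T, and for the interactions 1 to 2 and 0 to 0.

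Over all genes, the number called went from 544 to 1004 (mESC het against parental), 1909 to 3225 (mESC WT against het), 1064 to 1795 (ATRA het), 2789 to 4316 (ATRA WT against het), 1758 to 2911 (ATRA R679C), 3014 to 4633 (ATRA A733T) and 560 to 941 (A733T interaction) with the GC correction, and from 4635 to 2885 in mESC K634E. With the GC correction and the block together the first 7 numbers were 1166, 3565, 2098, 4786, 3322, 5044 and 1203. With only the groups compared it was 845 (mESC het against parental), 3227 (mESC WT against het), 1119 (ATRA R679C), 666 (ATRA K634E, from 2558) and 1073 (A733T interaction), and 3910 for ATRA K634E with the replicate block. Depth limits Cbx8 most, with 3 to 51 counts per group in mESC.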
